A study of Homo sapiens with 20 samples.

Results

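The 4 arrays labelled L1236 were taken by their titles from a series of 20. L1236 is an established line of classical Hodgkin lymphoma, a tumour that arises from B cells but keeps few of their markers. By their labels all 4 arrays hold RNA from cells that stably express FOXO1(3A)ER, a fusion of always-active FOXO1 with the part of the oestrogen receptor that binds ligand. The cells received 4-hydroxytamoxifen (4-OHT), the ligand that releases such a fusion, or ethanol vehicle for 24 h, with 2 arrays in each arm. The labelled dose is 200 µM, in protocol text written for a KLF4 fusion in KM-H2 and L428, so it is quoted only as labelled. The vehicle arm carries the fusion as well, and none of the arrays shows 4-OHT given to cells that lack it. Effects of the ligand and of FOXO1 therefore cannot be told apart. Which promoter drives the fusion, and whether the cells were 1 clone, is not given in the sources used here. A further 16 arrays come from KM-H2, L428, UHO-1 and SUP-HD1, treated by the same scheme. The labels say that the experiment was done 2 times and do not name separate cultures. The p-values thus rest on the spread between arrays, shared over all 5 lines, which may be in part technical. The question of the comparison is which transcripts change when FOXO1 is activated.

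FOXO1 is a forkhead transcription factor that enters the nucleus when signalling through PI3K and AKT is low and leaves it when AKT phosphorylates it. The 3A mutant lacks the AKT sites and escapes that control. In lymphocytes FOXO1 is known for raising IL7R and the trafficking genes KLF2, S1PR1 and CCR7, and for acting against growth driven by PI3K and MYC. In B cells it also takes part in the germinal centre programme, and PRDM1, the repressor that starts plasma cell differentiation, has been studied as a link between FOXO1 and Hodgkin lymphoma.

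The markers of the arrays labelled L1236 went against the label. Levels are log2 values from the robust multichip average, in which 1 unit is a 2-fold step, and were compared with the 8 arrays of UHO-1 and SUP-HD1, which had been normalised together with these 4. Of 14 T cell markers, 12 lay above all 8 of those arrays, where 17.4% of all tested genes did so and 15.5% lay below. The invariant T cell receptor chain CD3E read 12.19 and 12.25 with vehicle and 12.24 and 12.06 with 4-OHT, against 5.17 to 5.69 in the other 8. CD3D ran from 11.18 to 11.37 against 4.98 to 5.43, and CD3G from 11.74 to 11.91 against 4.58 to 6.43. The adaptor TRAT1 ran from 11.05 to 11.48 against 4.39 to 5.08, and the kinase LCK from 10.03 to 10.38 against 5.79 to 6.26. None of these ranges met those of the other 8 arrays. The exceptions were CD4 and CD8B, whose ranges overlapped. The mean level over the 14 markers was 9.69 and 9.7 with vehicle, 9.59 and 9.67 with 4-OHT, and 5.63 to 6.12 in the 8 arrays.

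Of 11 B cell and Hodgkin cell markers, 10 had a probe set of their own, and 5 of these lay below all 8 arrays. PAX5, the factor that holds B cell identity, ran from 6.32 to 6.53 against 9.23 to 9.76. The chemokine CCL5 ran from 5.09 to 5.4 against 8.55 to 10.68, and the signalling adaptor TRAF1 from 5.16 to 5.62 against 9.55 to 10.24. FSCN1 and CCL17 were the others below. CD79A and CD79B, the signalling chains of the B cell receptor, lay above instead, and the ranges of MS4A1, POU2F2 and TNFRSF8 (CD30) overlapped those of the 8 arrays. KM-H2 and L428 were normalised apart. In those lines PAX5 ran from 6.03 to 6.81 and CCL17 from 6.62 to 8.78, ranges that took in those seen here. FSCN1 (8.85 to 11.84), CCL5 (5.85 to 10.82) and TRAF1 (7.19 to 10.09) ran higher there than here. Other markers, chosen after their values were seen, lay further apart. The thymocyte genes DNTT (10.45 to 11.22 against 4.47 to 4.75), RAG2 (8.84 to 10.11 against 3.31 to 3.45), CD1A, CD1B and CD1E were above all 8 arrays. IRF4 (6.14 to 6.49 against 12.1 to 12.29), CD86 (3.8 to 4.28 against 10.83 to 11.35) and HLA-DPA1 (4.42 to 4.99 against 10.9 to 12.08) were below. What produced this pattern was not tested, a smaller share of cells of a type and less RNA per cell cannot be told apart in bulk RNA, and the arrays are therefore called the arrays labelled L1236 throughout.

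**Figure D1:**
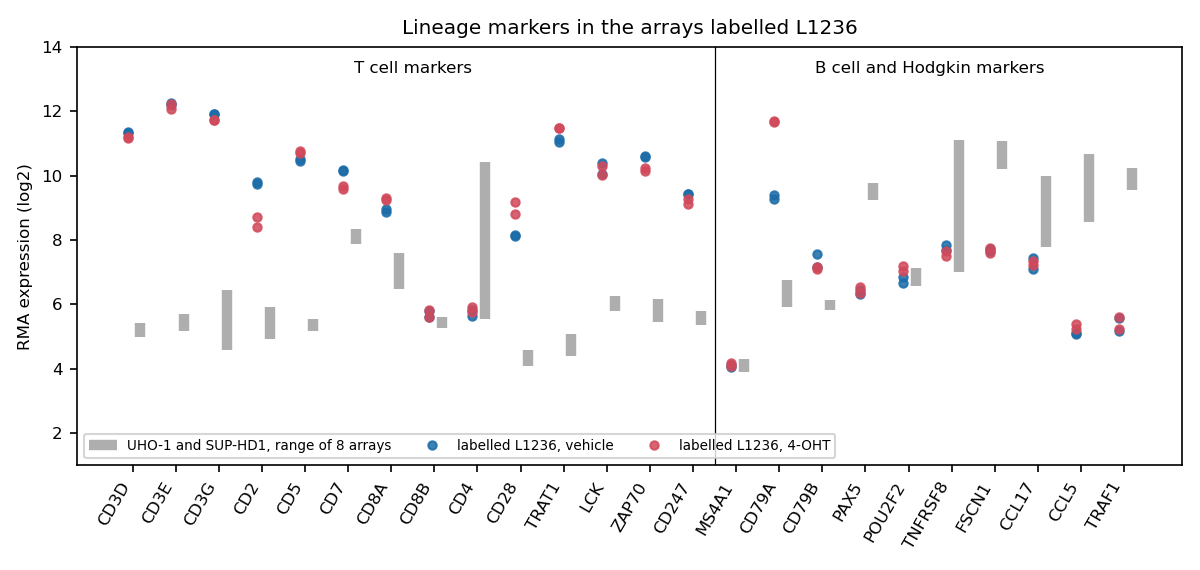
Log2 level of each T cell marker and of each B cell and Hodgkin marker in the 2 vehicle (blue) and 2 4-OHT (red) arrays labelled L1236, beside the range of the 8 arrays of UHO-1 and SUP-HD1 (grey bars). For 12 of 14 T cell markers the points lie above the grey bar, and for PAX5, FSCN1, CCL17, CCL5 and TRAF1 they lie below it.

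The fusion and its parts were read as a check of the label. FOXO1 read 10.63 and 10.50 with vehicle and 10.76 and 10.91 with 4-OHT, a rise of 0.27 ± 0.080 log2 (limma standard error, here and below, adjusted p = 0.0161). The arms did not overlap, but the call was lost under 4 of 17 other settings, among them each fit without vehicle replicate 2 or 4-OHT replicate 2, where the adjusted p reached 0.229. Whether the probe set reads the fusion, the cells' own transcript or both was not tested. ESR1, whose ligand-binding domain is part of the fusion, read 5.58 and 5.59 with vehicle and 5.45 and 5.65 with 4-OHT, a difference of -0.03 ± 0.126 that did not pass. The second ESR1 probe set had means of 5.16 with vehicle and 5.24 with 4-OHT. Both probe sets lay near 5, the floor on levels used for testing, so the receptor part of the fusion was not clearly read.

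The response was broad and uneven, with large rises of few genes and small falls of many. Of 15850 genes tested with limma, 1307 rose (8.25%) and 2354 fell (14.9%) at an adjusted p below 0.05, 3661 or 23.1% in all, so 35.7% of the genes that passed were higher. The rises reached further: 133 genes rose by at least 1 log2, 31 by at least 2 and 9 by at least 3, whereas 60 genes fell by at least 1 and 0 by at least 2. The median change over all genes was -0.0028. The count of falls rested in part on 2 arrays: it was 1517 without vehicle replicate 2 and 1356 without 4-OHT replicate 2, while the count of rises stayed between 961 and 1210 when any 1 of the 4 arrays was left out. With each array centred on its median, 853 genes rose and 2765 fell, a share of 23.6% higher.

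**Figure D2:**
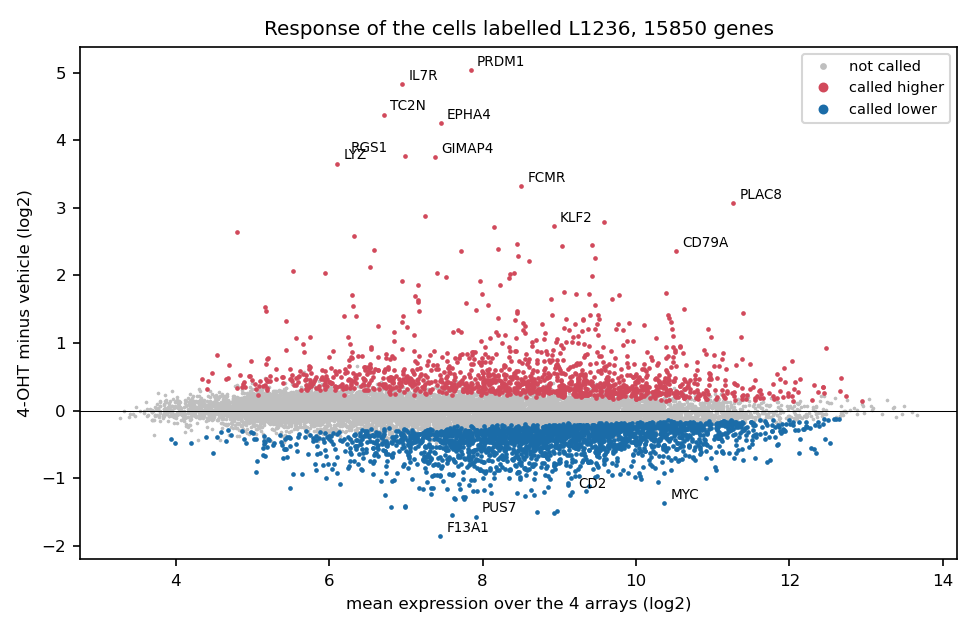
Difference between 4-OHT and vehicle (log2) against the mean level over the 4 arrays labelled L1236, 1 point per tested gene, red for the 1307 genes that rose, blue for the 2354 that fell and grey for the rest. The points above 3 are 9 rises led by PRDM1 and IL7R, and no fall reaches -2.

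The largest rise was that of PRDM1, the repressor that drives plasma cell differentiation and is also made by effector T cells. PRDM1 read 5.06 and 5.59 with vehicle and 10.32 and 10.40 with 4-OHT, a rise of 5.04 ± 0.118 log2 or 32.8-fold (adjusted p = 2.67e-18). IL7R, the chain of the interleukin-7 receptor that lymphoid cells need for survival, went from 4.57 and 4.5 to 9.35 and 9.39, a measured rise of 4.84 ± 0.169 (adjusted p = 1.06e-15). For both genes the treated arrays lay more than 4 units above the vehicle arrays. TC2N, a protein with tandem C2 domains, went from 4.55 and 4.5 to 8.96 and 8.84 (4.38 ± 0.151). EPHA4, a receptor tyrosine kinase for ephrins, went from 5.44 and 5.21 to 9.68 and 9.48 (4.25 ± 0.118). RGS1, which damps signalling from chemokine receptors, went from 5.21 and 4.99 to 8.93 and 8.81 (3.77 ± 0.104). In each the gap between the arms was far wider than that between the 2 arrays of an arm.

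The vehicle values of IL7R, TC2N and LYZ lay below 5, the floor on levels used for testing, so these genes passed it here only through the treated arrays, and their differences are best read as lower bounds. GIMAP4, a GTPase of lymphocytes, went from 5.46 and 5.53 to 9.33 and 9.18 (3.75 ± 0.108). LYZ, the secreted enzyme lysozyme, went from 4.37 and 4.18 to 8.07 and 7.79 (3.66 ± 0.131). FCMR, a receptor for the constant part of IgM, went from 6.94 and 6.74 to 10.15 and 10.16 (3.32 ± 0.115). LYZ is on the list of myeloid markers used here, and it was the 1 member of 9 tested that rose. ITGAM, CSF3R, CD14 and MPO, which define myeloid cells, ran no higher than 5.94 in these 4 arrays and did not pass. Other members ran higher, ELANE from 7.14 to 7.58 and S100A9 from 5.92 to 6.1, with ranges that overlapped those of UHO-1 and SUP-HD1. VCAN, from 6.45 to 6.97, lay above those 8 arrays (3.97 to 4.34). It was the 1 member that fell, a call lost under 5 other settings. Without LYZ, the mean level over the 11 other myeloid markers with a probe set ran from 5.42 to 5.54 with vehicle and from 5.42 to 5.58 with 4-OHT. PLAC8 was already at 9.68 and 9.77 with vehicle and reached 12.79 and 12.81 (3.07 ± 0.122). The remaining 6 of the 15 largest rises, between 2.47 and 2.88, were the Notch coactivator MAML2, the Krüppel-like factors KLF3 and KLF2, the actin-binding protein ABLIM1, the T cell kinase TXK and CEMIP2, which degrades hyaluronan. TXK went from 5.14 and 4.93 to 7.60 and 7.63.

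**Figure D3:**
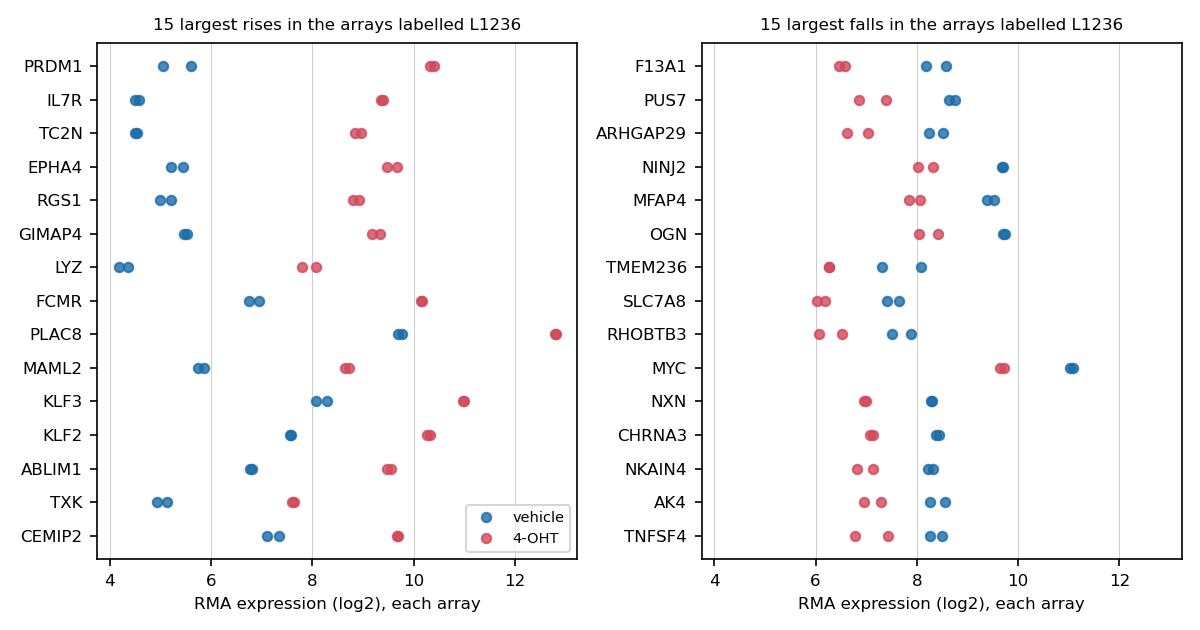
Log2 level of the 15 largest rises (left) and the 15 largest falls (right) in each of the 2 vehicle (blue) and 2 4-OHT (red) arrays labelled L1236. The arms are separated in every gene shown, with mean differences of 5.04 for PRDM1 and of 1.27 to 1.85 for the falls.

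The largest fall was that of F13A1, the A subunit of coagulation factor XIII, from 8.18 and 8.57 to 6.57 and 6.47, a change of -1.85 ± 0.148 log2 (adjusted p = 2.56e-09). PUS7, a pseudouridine synthase that modifies RNA, went from 8.63 and 8.76 to 7.39 and 6.86 (-1.57 ± 0.122). ARHGAP29, a GTPase-activating protein, went from 8.24 and 8.51 to 7.03 and 6.62 (-1.55 ± 0.157). The treated arrays lay below the vehicle arrays in each, and 4-OHT replicate 2 was the lower of the 2 treated arrays in all of these. NINJ2, the microfibril protein MFAP4, the proteoglycan OGN, TMEM236, the amino acid transporter SLC7A8 and RHOBTB3 fell by between 1.41 and 1.52. MYC came next, and NXN, the nicotinic receptor subunit CHRNA3, NKAIN4, the mitochondrial adenylate kinase AK4 and TNFSF4 (OX40 ligand) fell by 1.27 to 1.31. For AK4 the second probe set of the gene changed by -0.10, so the fall rests on 1 probe set.

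Counts of lists are read against the 8.25% of all genes that rose and the 14.9% that fell, and a count near these shares is no result about a list. Of 37 tested genes known to be raised by FOXO factors, 19 rose and 5 fell, with a median change of 0.32. The list was written with results of these data known. IL7R and KLF2 led it. TP53INP1, a stress-induced protein of autophagy and cell death, went from 8.33 and 8.53 to 10.49 and 10.34 (1.99 ± 0.123). CBLB, a ubiquitin ligase that restrains T cell activation, went from 9.40 and 9.63 to 11.24 and 11.28 (1.75 ± 0.122). Both arms were separated in each gene. PIK3IP1, an inhibitor of PI3K, rose by 1.55, SESN3, which restrains mTORC1, by 1.25, the mitochondrial superoxide dismutase SOD2 by 1.06 and the cell cycle inhibitor CDKN1B by 0.81. The pro-apoptotic genes TNFSF10 (TRAIL) and BCL2L11 (BIM) rose by 0.73 and 0.44.

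The 5 members that fell were PMAIP1, RAG2, BCL6, BNIP3 and GADD45A. PMAIP1 (NOXA), which promotes apoptosis, went from 9.03 and 8.93 to 8.24 and 7.99 (-0.86 ± 0.081). RAG2, part of the recombinase that assembles antigen receptor genes, went from 9.73 and 10.11 to 9.33 and 8.84 (-0.83 ± 0.139). BCL6, the repressor of germinal centre cells, went from 8.08 and 8.23 to 7.51 and 7.47 (-0.66 ± 0.071). The arms did not overlap in these 3 genes. FBXO32, a muscle ubiquitin ligase and a much-used readout of FOXO activity, read 6.65 and 6.77 with vehicle and 6.99 and 6.67 with 4-OHT. Its arms overlapped, and its difference of 0.12 ± 0.084 did not pass (adjusted p = 0.384). RAG1, at -0.31, did not pass either.

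Of 17 tested trafficking genes, 9 rose and 1 fell, with a median change of 0.46, where 8.25% of all genes rose. The other 7 did not pass, and 2 fell without vehicle replicate 2. KLF2, the factor that keeps lymphocytes quiescent and in circulation, went from 7.55 and 7.58 to 10.26 and 10.33, a rise of 2.73 ± 0.087 or 6.64-fold (adjusted p = 2.79e-16). S1PR1, the receptor by which lymphocytes leave lymphoid organs, went from 9.13 and 9.14 to 10.36 and 10.33 (1.21 ± 0.100, adjusted p = 4.28e-09). CCR7, which guides cells into lymph nodes, went from 8.66 and 8.61 to 9.96 and 10.01 (1.35 ± 0.055). In these the 2 arrays of an arm lay within 0.1 of each other. S1PR4, another sphingosine phosphate receptor, rose by 1.26. The fall was that of ITGAL, the alpha chain of the integrin LFA-1, from 9.0 and 9.37 to 8.09 and 7.75 (-1.26 ± 0.126).

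Of 12 Krüppel-like factors, 6 rose and 0 fell, with a median of 0.37. KLF3, a repressor, went from 8.07 and 8.29 to 10.99 and 10.98 (2.80 ± 0.094). KLF7 went from 9.70 and 9.72 to 11.16 and 11.09 (1.42 ± 0.147), and KLF12 rose by 0.86. Both arms stood apart in each. RGS1 was the 1 of 9 tested RGS genes that passed, and the others changed by between -0.27 and 0.26.

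T cell genes moved in both directions. Of the 14 markers, 3 rose and 3 fell, with a median of -0.06, and CD3E, CD3D, CD3G, LCK and CD247 did not pass, at changes between -0.24 and -0.05. CD28, the costimulatory receptor, went from 8.17 and 8.11 to 9.17 and 8.80 (0.84 ± 0.157, adjusted p = 3.07e-04). CD2, an adhesion receptor, went from 9.79 and 9.73 to 8.73 and 8.39 (-1.20 ± 0.117, adjusted p = 5.44e-08), and CD7 fell by 0.53. CD28 and CD2 thus separated the arms in opposite directions. CD8A (0.35), TRAT1 (0.39) and ZAP70 (-0.41) passed, but each lost its call without vehicle replicate 1, without vehicle replicate 2 and without 4-OHT replicate 2, at adjusted p-values of up to 0.179.

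Other cytokine receptor genes rose beside IL7R. Of 28 tested genes of the JAK-STAT pathway, 8 rose and 4 fell, with a median of 0.10. IL4R, a receptor chain for interleukin-4, went from 7.25 and 7.35 to 9.11 and 9.20 (1.86 ± 0.075). IL21R, a receptor for another cytokine of the same family, went from 5.81 and 5.75 to 6.78 and 6.76 (0.99 ± 0.067), and the kinase PIM1, which STAT factors induce, rose by 1.02. The arms were clearly apart for these. SOCS1, a feedback inhibitor of JAK kinases, went from 7.58 and 7.56 to 6.93 and 6.88 (-0.67 ± 0.105), and the phosphatase PTPN2, another brake on JAK signalling, fell by 0.50. The count of falls was 2 without vehicle replicate 2 and 2 without 4-OHT replicate 2.

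Of 29 genes of insulin, PI3K and mTOR signalling 6 rose and 7 fell, with a median of 0.00, where 8.25% of all genes rose and 14.9% fell. PIK3CD, the PI3K catalytic subunit of leukocytes, went from 8.39 and 8.43 to 9.82 and 9.70 (1.35 ± 0.093), whereas PIK3CB, a more widely expressed catalytic subunit, went from 8.49 and 8.75 to 8.13 and 7.83 (-0.64 ± 0.103). PIK3IP1 went from 5.56 and 5.52 to 7.24 and 6.94 (1.55 ± 0.134). The catalytic subunits thus changed in opposite directions, while an inhibitor of the enzyme rose. EIF4EBP1, the translation repressor that mTORC1 inactivates, fell by 0.91, and the insulin receptor substrate IRS1 by 0.56.

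The rise of PRDM1 was not shared by the plasma cell list as a whole. Of 16 tested members 3 rose and 5 fell, with a median of -0.09, and 2 fell without 4-OHT replicate 2. CD38, a surface enzyme of plasma cells and of thymocytes, went from 12.08 and 11.95 to 12.97 and 12.92 (0.93 ± 0.152). IRF4, the factor that acts with PRDM1 in plasma cells, read 6.48 and 6.14 with vehicle and 6.25 and 6.49 with 4-OHT (0.06 ± 0.088, adjusted p = 0.715), and its arms overlapped. PRDX4 and MZB1, which serve secretion in the endoplasmic reticulum, fell by 0.95 and 0.87. XBP1, the factor that expands the secretory apparatus, read 10.59 and 10.57 with vehicle and 10.41 and 10.31 with 4-OHT (-0.22 ± 0.054), a fall that lost its call without 4-OHT replicate 2 (adjusted p = 0.0739).

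Of 20 tested B cell genes 3 rose and 4 fell, where 8.25% of all genes rose and 14.9% fell, with a median of -0.01 whose sign differed between settings. CD79A went from 9.28 and 9.39 to 11.71 and 11.68, a rise of 2.36 ± 0.126 or 5.15-fold. CR2, the complement receptor CD21, went from 8.15 and 8.51 to 10.63 and 10.55, a rise of 2.26 ± 0.123 or 4.79-fold. PAX5, by contrast, did not pass at 0.07. BCL11A, a repressor of early B and progenitor cells, fell by 0.87 and IKZF3 (Aiolos) by 0.45. Among 15 germinal centre genes 3 rose and 2 fell, with a median of 0.12 whose sign also differed between settings, and 1 fell without vehicle replicate 1 or 4-OHT replicate 2. FOXP1 rose by 0.98 and GCSAM by 0.63, beside the fall of BCL6.

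MYC and genes of cell growth fell. MYC, the growth regulator, went from 11.03 and 11.08 to 9.72 and 9.65, a fall of 1.37 ± 0.076 log2 or 2.58-fold (adjusted p = 6.64e-12). Its arms were apart and its call held under all 17 other settings. Of 11 tested members of the MYC and MAX network, MYC and TFAP4, a factor that MYC induces, fell and MXD3, a MAX partner that opposes MYC, rose. TFAP4 changed by -0.83 and MXD3 by 0.90.

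Every tested gene of the ribosome biogenesis list fell, 27 of 27, with changes from -1.0 to -0.31 and a median of -0.76, where 14.9% of all genes fell. Between 26 and 27 fell under the other settings. RRS1, an assembly factor of the large subunit, went from 8.82 and 8.88 to 7.89 and 7.80 (-1.0 ± 0.086). NOP16, a nucleolar protein, went from 7.89 and 7.97 to 6.93 and 7.0 (-0.97 ± 0.086). WDR12 and WDR43, which process ribosomal RNA, fell by 0.95 and 0.92. No arms overlapped in these 4 genes. The fibrillarin gene FBL, NCL (nucleolin) and NPM1 (nucleophosmin), named after their values were seen, were among the smaller falls at -0.36, -0.40 and -0.31.

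Of 22 genes of nucleotide and one-carbon synthesis, 20 fell and 0 rose, with a median of -0.43. MTHFD1L, the mitochondrial enzyme that releases formate for purine synthesis, went from 8.90 and 9.09 to 8.04 and 7.93 (-1.01 ± 0.092). ATIC, which completes purine synthesis, went from 10.65 and 10.69 to 9.98 and 9.67 (-0.85 ± 0.075). ODC1, the first enzyme of polyamine synthesis, went from 11.45 and 11.45 to 10.62 and 10.61 (-0.83 ± 0.058). All 4 arrays kept the arms apart in each. PAICS fell by 0.70, while PHGDH (-0.31) and PRPS1 (-0.06) did not pass.

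**Figure D4:**
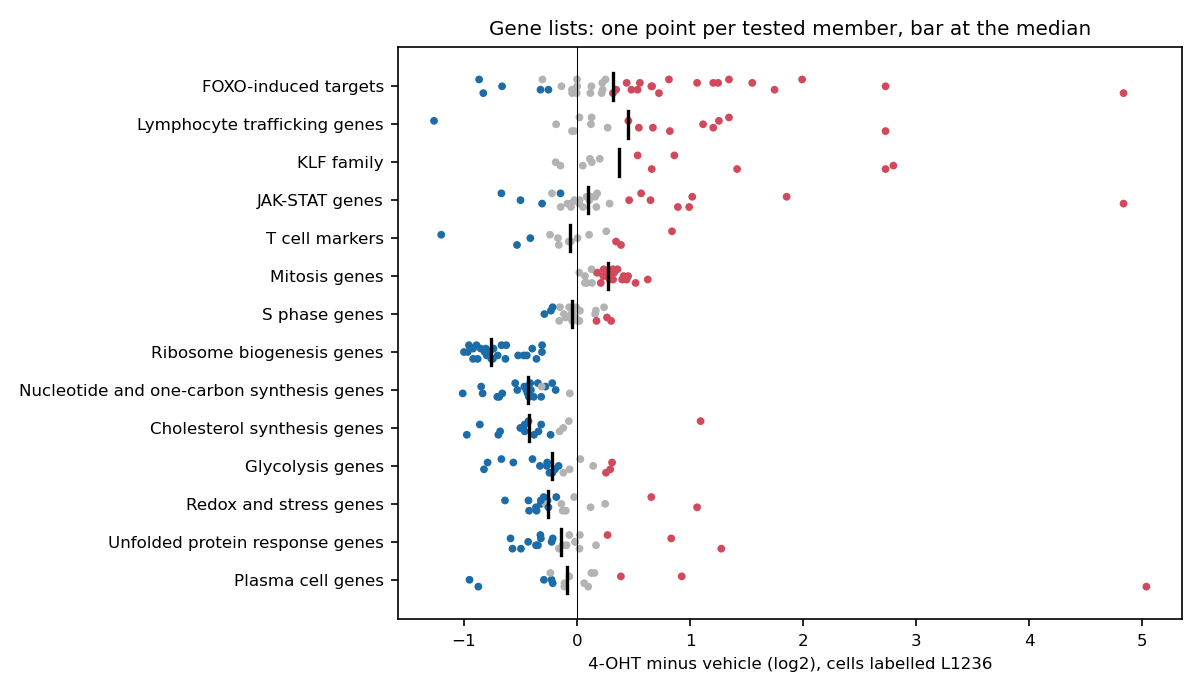
Difference between 4-OHT and vehicle (log2) of each tested member of 14 gene lists, 1 point per gene, red for genes that rose, blue for genes that fell and grey for those that did not pass, with a black bar at the median of the list. All 27 points of the ribosome biogenesis list are blue, 17 of 24 mitosis genes are red, and single members such as IL7R and PRDM1 stand far from their lists.

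Of 24 tested mitosis genes, 17 rose and 0 fell, where 8.25% of all genes rose, with a median of 0.28 and changes from 0.02 to 0.63. The count was 10 after median centring and 19 at most under the other settings. ASPM, a spindle pole protein, went from 9.77 and 9.94 to 10.48 and 10.48 (0.63 ± 0.087). MKI67, the proliferation marker Ki-67, went from 10.85 and 11.01 to 11.36 and 11.41 (0.45 ± 0.067), and the kinetochore proteins CENPE and CENPF rose by 0.52 and 0.44. Both treated arrays lay above both vehicle arrays in each. Of 27 S phase genes, 3 rose and 3 fell, near the 8.25% and 14.9% of all genes or below, with a median of -0.04. The rises came to 0 without vehicle replicate 1 or 4-OHT replicate 1 and the falls to 0 without vehicle replicate 2 or 4-OHT replicate 2. The changes lay between -0.29 (UHRF1) and 0.30 (E2F1), and PCNA, RRM2 and the MCM helicase genes did not pass.

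Among 16 regulators of G1, 5 rose and 3 fell. CDKN1B (p27), which binds and inhibits cyclin-dependent kinases, went from 9.38 and 9.57 to 10.34 and 10.24 (0.81 ± 0.071, adjusted p = 1.03e-08). CCND3, the D cyclin of developing T cells, went from 11.60 and 11.63 to 12.28 and 12.22 (0.63 ± 0.073), whereas CCND2 went from 7.35 and 7.69 to 7.20 and 6.77 (-0.53 ± 0.103). The arms did not overlap in any of the 3. The kinases CDK4 and CDK6, which the D cyclins activate, fell by 0.49 and 0.27.

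Of 17 tested genes of cholesterol synthesis 13 fell and 1 rose, where 14.9% of all genes fell, with a median of -0.43, though 7 fell without 4-OHT replicate 2. DHCR7, the last enzyme of cholesterol synthesis, went from 9.93 and 9.98 to 9.03 and 8.93 (-0.97 ± 0.077). HMGCS1 and SQLE, enzymes of the mevalonate and squalene steps, fell by 0.69 and 0.68. The rise was that of INSIG1, which holds the SREBP factors of this pathway in the endoplasmic reticulum, from 10.81 and 10.84 to 11.96 and 11.88 (1.09 ± 0.066). INSIG1 and the enzymes thus moved in opposite directions, with no overlap of the arms in either.

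Of 19 glycolysis genes 12 fell and 3 rose, with a median of -0.22, and 0 rose after median centring or without 4-OHT replicate 1. PFKM and HK2, enzymes of the early, regulated steps, fell by 0.82 and 0.79. ENO1 (enolase) went from 12.60 and 12.60 to 12.03 and 12.05 (-0.56 ± 0.043). Of 20 redox and stress genes 11 fell and 2 rose, with a median of -0.26, and 7 fell without 4-OHT replicate 2. SOD2 went from 8.21 and 8.33 to 9.33 and 9.34 (1.06 ± 0.083), whereas the cytosolic SOD1 fell by 0.42 and the thioredoxin reductase TXNRD1 by 0.43. TXNIP, which inhibits thioredoxin and glucose uptake, went from 10.79 and 10.73 to 11.46 and 11.37 (0.66 ± 0.104). SOD2 and SOD1 separated their arms in opposite directions.

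Of 22 genes of the unfolded protein response 10 fell and 3 rose, with a median of -0.14. The chaperone HSPA5 (BiP) went from 11.60 and 11.74 to 11.14 and 11.07 (-0.57 ± 0.074), and CALR, the chaperone calreticulin, fell by 0.50. The sensor ERN1 (IRE1) and EDEM1, which sends misfolded proteins to degradation, went the other way. EDEM1 went from 9.03 and 9.23 to 10.44 and 10.37 (1.28 ± 0.085), and ERN1 rose by 0.83. Of 18 autophagy genes 2 fell, ATG12 and BNIP3, and 0 rose, with 1 fall left without vehicle replicate 1, vehicle replicate 2 or 4-OHT replicate 2.

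In the BCL2 family 3 of 15 genes rose and 4 fell, where 8.25% of all genes rose and 14.9% fell, and 1 rose without 4-OHT replicate 2. BCL2L11 went from 7.77 and 7.92 to 8.28 and 8.29 (0.44 ± 0.100), and HRK, also pro-apoptotic, rose by 0.40. PMAIP1, BID and BCL2A1 fell by 0.86, 0.77 and 0.52, the last of these an inhibitor of apoptosis. Pro-apoptotic members were thus found on both sides. Of 25 genes of the TNF and TNF receptor families 4 rose and 4 fell, near the shares of all genes, with 2 rises without 4-OHT replicate 2 and 7 falls after median centring. TNFSF10 went from 8.47 and 8.57 to 9.37 and 9.13 (0.73 ± 0.095), FAS rose by 0.39, and TNFSF4 went from 8.26 and 8.50 to 7.42 and 6.79 (-1.27 ± 0.198). TNFRSF8 (CD30), the Hodgkin cell marker, did not pass at -0.20 ± 0.091, though it passed after median centring (adjusted p = 0.0452). Of 22 NF-kB genes 3 rose and 6 fell, all by less than 1 log2, and 3 fell without vehicle replicate 2.

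Few genes of the Hodgkin phenotype passed. Of 28 tested Hodgkin cell markers and chemokines 1 rose and 2 fell, where 8.25% of all genes rose and 14.9% fell. Levels of CCL5 (5.09 to 5.4), CD86 (3.8 to 4.28) and CSF1R (5.67 to 5.87) were low in both arms, so a fall there could hardly be seen. FSCN1, CCL17 and TNFRSF8 ran between 7.09 and 7.84. The rises came to 4 without vehicle replicate 1 and 3 without 4-OHT replicate 1, and the falls to 1 without vehicle replicate 1 and 4 without 4-OHT replicate 2 or after median centring. The rise was that of ID2, an inhibitor of E proteins, from 7.56 and 7.44 to 9.74 and 9.68 (2.21 ± 0.079, adjusted p = 1.44e-15). NOTCH1, the receptor that drives T cell commitment, went from 10.53 and 10.62 to 9.75 and 9.81 (-0.79 ± 0.088). ID3, a second inhibitor of E proteins, went from 8.81 and 8.89 to 10.05 and 10.08 (1.21 ± 0.122), while ID1 fell by 0.54. The ID genes did not move together. On the list of lineage-inappropriate regulators 5 of 20 rose and 4 fell, ETS1 rising by 0.76 and BATF3 falling by 0.50.

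The counts of the remaining lists are read against the 8.25% of all genes that rose and the 14.9% that fell. At least 1 of each list's counts changed by over 1.5 times when a single array was left out. Of 24 interferon-induced genes 2 rose and 5 fell, led by RSAD2 (-1.05) and IRF9 (0.79), with 3 falls without vehicle replicate 2 and 1 rise without vehicle replicate 2 or 4-OHT replicate 2. Of 10 MHC class I and antigen processing genes 2 rose and 2 fell, and of 11 MHC class II genes 0 rose and 2 fell, where 2 rose without vehicle replicate 1 or 4-OHT replicate 1. HLA-DPA1, 1 of the 2 class II falls, ran from 4.42 to 4.99, below the floor of 5 used for testing. Of 16 forkhead genes 4 rose and 1 fell, with FOXO3 at 0.07 and FOXO4 at -0.07, neither passing. Of 14 genes that oestrogen induces elsewhere 1 rose (IGFBP4, 0.37) and 3 fell (MYB, SIAH2 and XBP1). Of 9 tested myeloid markers 1 rose and 1 fell, and of 13 stromal markers 0 rose and 1 fell, PECAM1 at -0.94. Of 12 housekeeping genes 2 rose and 2 fell, with ACTB at 0.14 and TFRC, the transferrin receptor, at -0.69.

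The difference of the response from that of the other 4 lines was tested in the same fit. A gene was counted where the change in the arrays labelled L1236 differed from the mean change of KM-H2, L428, UHO-1 and SUP-HD1, and also, with the same sign, from that of UHO-1 and SUP-HD1 alone. This held for 2857 genes (18%), with a more positive change in 967 (6.1%) and a more negative one in 1890 (11.9%). Of the rises, 741 (56.7%) were also more positive than in the other lines, and of the falls 1319 (56%) were also more negative. Both calls use the change in the same 4 arrays, so these shares are not independent of the first call. Among the 133 rises of at least 1 log2, 61 were called higher in none of the other 4 lines and 7 in all 4, and the 7 were CBLB, MYO1D, PIK3IP1, PRDM1, RGS1, RIPOR2 and TSC22D3.

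For the other lines, values follow in the order KM-H2, L428, UHO-1 and SUP-HD1. PRDM1 rose in all 5 lines, by 5.04 here and by 2.37, 1.29, 0.47 and 0.41 there. IL7R changed by -0.25, 0.87, 0.27 and 0.54. KLF2 changed by -0.16, 0.07, 0.13 and -0.07 in the same lines, and S1PR1 by 0.11, -0.26, 0.12 and -0.07. The rises of KLF2 and S1PR1 were thus 2.74 ± 0.097 and 1.23 ± 0.111 larger than the mean of the other lines (limma adjusted p = 2.44e-15 and 2.5e-08). CDKN1B rose by 0.60, 1.07, 0.83 and 0.56 elsewhere, and its difference of 0.05 ± 0.080 from their mean did not pass (adjusted p = 0.705). MYC changed by -2.44, -0.61, -0.21 and -0.43 elsewhere.

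Some genes that rose elsewhere fell or did not pass here. FBXO32, taken for its place on the FOXO list, was 2.65 below the mean change of the other lines (adjusted p = 2.44e-15). BCL6 changed by -0.09, 1.10, 0.81 and 0.45 in the same order, against -0.66 here, a difference of -1.23 ± 0.080. CR2 went the other way, at -2.59, -0.65, -0.30 and -0.04 against 2.26 here. Of the 24 mitosis genes, 20 fell and 0 rose in L428, while 2 fell and 5 rose in KM-H2. Of the 17 that rose here, 15 also differed from the other lines, by a contrast that holds the same change here. The sign of the mitosis list's median thus differed between L428 (-0.50) and the arrays labelled L1236 (0.28).

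**Figure D5:**
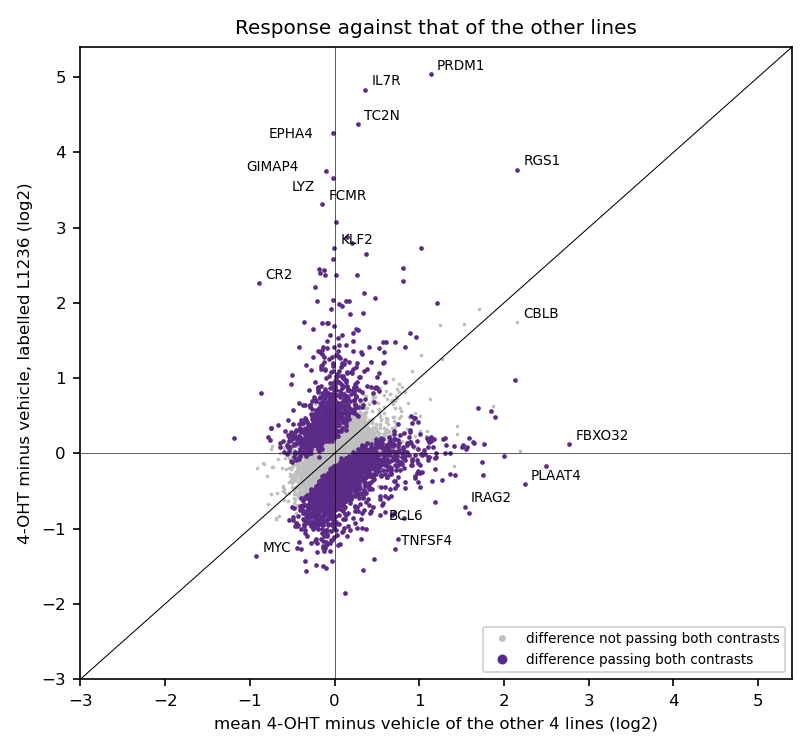
Difference between 4-OHT and vehicle in the arrays labelled L1236 (vertical axis, log2) against the mean of the same difference in the other 4 lines (horizontal axis, log2), 1 point per tested gene, purple for the 2857 genes that differed by both contrasts. The diagonal marks equal change, IL7R, EPHA4, GIMAP4, LYZ and KLF2 lie near 0 on the horizontal axis, and FBXO32, PLAAT4 and IRAG2 lie far to the right of it.

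Shares of shared calls are given for each list. Of the rises here, 272 (20.8%) were also rises in KM-H2, which were 17.1% of that line's rises, where 10% of all genes rose in KM-H2. With L428 the overlap was 421, or 32.2% and 22.1% of the respective rises, where 12% of all genes rose in L428. With UHO-1 it was 357 (27.3% and 16.9%, where 13.4% of all genes rose) and with SUP-HD1 129 (9.9% and 22.1%, where 3.68% rose). Of the falls here, 1076 (45.7%) were also falls in L428, which were 38.8% of that line's falls, where 17.5% of all genes fell. With SUP-HD1 the shared falls were 169, or 7.2% and 45.3% of the respective falls, where 2.35% of all genes fell. Opposite calls were fewer than shared ones between these arrays and L428, with 215 genes higher here and lower there and 195 the reverse. With KM-H2 the shared falls were 546 (23.2% and 28.1%, where 12.3% of all genes fell), beside 190 genes higher here and lower there and 242 the reverse. With UHO-1 they were 370 (15.7% and 21.0%, where 11.1% fell), beside 103 and 246 opposite calls, and with SUP-HD1 the opposite calls were 42 and 73. Opposite calls are out of the 1307 rises and 2354 falls here, and stand beside the same shares of all genes. For KM-H2 and SUP-HD1 the genes higher here and lower there exceeded those shares. The other opposite calls lay near or below them.

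Promoters were searched for GTAAACA, the core of the FOXO binding sequence, and for TGTTTAC, its reverse complement on the other strand. RefSeq windows of GRCh38.p14, from 250 bases before to 50 after the start of a gene, were at hand for 12375 of the 15850 tested genes. The motif stood in 2.27% of all these windows, in 3.3% of those of genes that rose, in 4.5% (5 of 111) of those of genes that rose by at least 1 log2 and in 2.01% of those of genes that fell. Of the 5, the 3 below had the motif with its flanks wholly before the start. They are shown as the sequences around it, 5′ to 3′ on the strand of the gene with the motif in capitals, and were chosen after their values were seen.
SLAMF6: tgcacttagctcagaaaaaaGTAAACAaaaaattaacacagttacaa
TRIB2: tTGTTTACctccccggccgggcgaggga
TCP11L2: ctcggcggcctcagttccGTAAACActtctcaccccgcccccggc

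The SLAMF6 stretch lies at chr1:160523338-160523384 on the minus strand, with the motif starting 109 bases before the gene. The TRIB2 stretch lies at chr2:12716686-12716713 and the TCP11L2 stretch at chr12:106302483-106302527, both on the plus strand. SLAMF6, a receptor of lymphocytes, went from 10.38 and 10.47 to 11.51 and 11.52 (1.09 ± 0.114). TRIB2, a pseudokinase, went from 8.02 and 8.10 to 9.73 and 9.70 (1.65 ± 0.121). TCP11L2 went from 6.28 and 6.59 to 8.04 and 7.77 (1.47 ± 0.147). All 3 genes separated the arms, and a match of letters does not show that FOXO1 binds there.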

How the data were processed

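Per the labels, total RNA was measured on Human Gene 1.0 ST arrays of Affymetrix. The authors deposited log2 values per probe set from the robust multichip average, per the submitters' processing notes. Sorted values showed that L1236 shared its normalisation with UHO-1 and SUP-HD1, and KM-H2 with L428. Levels were therefore compared within a set, apart from the B cell and Hodgkin markers quoted for both sets. Of 33268 probe sets, 19457 had exactly 1 gene symbol, 1751 had several and 12060 were not named. The probe set with the highest mean stood for a gene, and genes with a log2 value of at least 5 in at least 2 arrays were tested, 15850 of 18416. The array's build is not given in the sources used here, and the coordinates printed are those of RefSeq's promoter windows.

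Differences were tested with limma 3.58.1 in R 4.3.3: 10 group means over 20 arrays, eBayes with an intensity trend, 10 residual and 11.8 prior degrees of freedom, Benjamini-Hochberg adjustment over all genes of a contrast and a threshold of 0.05. The scripts were tested on simulated data. Having 2 arrays per arm limits the precision: over all genes, the 2 replicate arrays within an arm labelled L1236 differed with an SD of 0.204 with vehicle and 0.178 with 4-OHT. In the other lines these SDs ran from 0.144 to 0.188 and from 0.133 to 0.168. The spread is shared across lines, so the errors given may understate that of the arrays labelled L1236. Fitted alone, these 4 arrays gave 1127 rises and 1958 falls among 15006 genes. The same replicate numbers did not pair the arrays of the arms. No array was dropped and no value imputed.

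Named genes were first the 15 largest rises and 15 largest falls among eligible genes. Eligible genes were protein-coding, passed, had arms that did not overlap and had a higher mean of at least 6.5. Added were up to 4 members of each of 34 gene lists with the largest changes, and up to 2 of the other direction. A further 12 genes were always named. The last were the 8 largest differences from the other lines in each direction, among eligible genes that differed by both contrasts. The members and lists were chosen with earlier results of these data known. The alternatives were other floors, scalings, probe set rules, variance models and sets of arrays, and each array left out in turn.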

Additional observations from a re-analysis of the deposited data

Results flagged for a closer look

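These genes changed differently in the arrays labelled L1236 than in the other 4 lines by a test of the difference itself, in the same limma fit. The value given is the change here minus the mean change of the other lines on the log2 scale, and each difference passed against the 4 lines and against UHO-1 and SUP-HD1 alone. The receptors and signalling genes IL7R (4.48), EPHA4 (4.27), FCMR (3.46) and CR2 (3.16) had more positive changes, as had TC2N (4.10), PRDM1 (3.90), GIMAP4 (3.86) and LYZ (3.67). More positive changes were also seen for KLF2 (2.74), S1PR1 (1.23) and FOXO1 (0.43). For FOXO1, the change here lost its own call under 4 other settings.

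More negative changes were found for PLAAT4 (-2.66), IRAG2 (-2.24), GLCCI1 (-2.04), TNFSF4 (-1.99), F13A1 (-1.97), RHOBTB3 (-1.88), ARHGAP29 (-1.88), SLC41A2 (-1.83), BCL6 (-1.23) and MYC (-0.45). The fall of MYC was larger in KM-H2 (-2.44) than here (-1.37), and its difference is from the mean of the 4 lines. The negative differences hold genes that rose elsewhere as well as genes that fell here. Apart from the genes always named, only genes that passed here were taken, so FBXO32, which did not pass here, is not listed. For GLCCI1 and PLAAT4, the change here lost its own call under 7 and 2 other settings. In the order KM-H2, L428, UHO-1 and SUP-HD1, PLAAT4 rose by 1.91, 3.29, 3.13 and 0.65, and it read 9.38 and 9.43 with vehicle and 9.08 and 8.90 with 4-OHT here. IRAG2 rose by 1.78, 1.72, 1.87 and 0.76 in the same lines and changed by -0.71 here. F13A1 changed by 0.10, 0.15, 0.12 and 0.10 elsewhere and by -1.85 here. The 4 arrays whose markers go against their label carry all of these differences.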

How the results depend on the processing

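Precision is limited by 2 arrays per arm. What the changes can be said to mean is limited by the missing control of 4-OHT in cells without the fusion, and by markers that go against the label. Of 173 named genes 170 passed, and 132 of these passed under all 17 other settings; 0 changed the sign of a called value. Median centring gave 853 rises in place of 1307. Leaving out 1 array at a time gave 961 to 1210 rises and 1356 to 2269 falls, against 2354, and 1385 to 2428 more negative differences from the mean of the other 4 lines, against 2351 by that contrast alone. Falls and more negative differences were lowest without 4-OHT replicate 2 and without vehicle replicate 2 (1517 and 1506).

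The numbers do not pair the arrays of the arms: deviations of same-numbered arrays correlated at -0.557 over genes. With the replicate block there were 1227 rises and 2218 falls. With the numbers crossed within L1236, a setting chosen after seeing the data, there were 1584 and 2710.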

Other observations

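Gene families were also taken whole by their symbols and were chosen after their values were seen. Their counts stand beside the 8.25% of all genes that rose and the 14.9% that fell, and being so chosen they test nothing. All 5 tested GIMAP genes, GTPases of lymphocytes, rose, by 0.37 (GIMAP2), 1.31 (GIMAP6), 1.73 (GIMAP7), 2.37 (GIMAP8) and 3.75 (GIMAP4), and 4 of these also differed from the other lines. GIMAP8 went from 5.37 and 5.42 to 7.91 and 7.63. The CD1 family includes proteins that present lipids to T cells and markers of cortical thymocytes. All 5 tested CD1 genes fell, by 1.19 (CD1A), 0.80 (CD1C), 0.72 (CD1E), 0.69 (CD1B) and 0.55 (CD1D), and all 5 differed from the other lines. CD1A went from 9.98 and 9.89 to 8.79 and 8.70. Among regulators of RAS, 2 of 4 RASGRP, 2 of 2 RASA and 3 of 10 RASSF genes rose and 0 fell. The other members did not pass. The rises included the exchange factors RASGRP1 (1.37) and RASGRP2 (1.28) and the GTPase-activating proteins RASA2 (1.20) and RASA3 (1.28). RASSF3 (2.03) and RASSF6 (2.65) of the RASSF family also rose. RASSF6 read 3.52 and 3.44 with vehicle and 6.35 and 5.91 with 4-OHT. It passed the floor of 5 here only through the treated arrays, so its difference is best read as a lower bound.

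Families of protein synthesis and lipid metabolism are read against the 8.25% of all genes that rose and the 14.9% that fell. Of 73 mitochondrial ribosomal proteins 47 fell and 0 rose, with a median of -0.32. Of 19 cytosolic aminoacyl-tRNA synthetases 14 fell and 1 rose (median -0.43), and of 34 proteasome subunits 25 fell and 0 rose (median -0.23). Of 63 cytosolic ribosomal proteins 19 fell and 0 rose (median -0.10). The counts of the 156 small nucleolar RNAs, of which 25 fell and 12 rose (median -0.08), were near the shares of all genes. Of 10 genes of fatty acid synthesis 9 fell, among them FASN (-0.83) and SCD (-0.74). The cholesterol efflux transporters ABCA1 and ABCG1 fell by 1.25 and 1.02, together with the genes of cholesterol synthesis.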
